A study of Mus musculus with 21 samples.

Results

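Whole testis of 15 day old wild type mice was compared with whole testis of adult wild type mice on 4 of the 21 arrays of a study of mouse gonads. The 4 arrays were all those whose 2 source labels were 15 day and adult wild type whole testis. Each array carried total RNA of both ages, one in each channel. The 15 day RNA was in channel 2 on replicates 1 and 4 (titled YA568 and YA761) and in channel 1 on replicates 2 and 3 (titled YA569 and YA760). The labels gave no strain and no exact age for the adults, and they did not say whether the arrays held separate animals, pools or repeats of 1 extract. The p-values then rest on the scatter between arrays, pooled over the 21 arrays of the model, and that scatter may be technical. The other arrays of the study compared Spo11 knockout with wild type testis, ovary with testis, and each organ with a reference RNA.

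Spermatogenesis starts after birth as a synchronous first wave. Spermatogonia divide and enter meiosis, spermatocytes then pass through a long prophase, and only after the meiotic divisions do haploid round and elongating spermatids appear, which build the acrosome, the flagellum and the condensed sperm head. A 15 day testis holds Sertoli cells, peritubular and interstitial cells, spermatogonia and spermatocytes up to early pachytene, whereas most cells of an adult testis are late spermatocytes and spermatids. Adult Leydig cells, which make testosterone, form during the same weeks. A ratio between whole organs compares the mixture of cells, so fewer cells of a type and less RNA per cell cannot be told apart.

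The values are log2 ratios between both sources, centred on the median of each array. Which age is the numerator is not stated, and 15 day over adult is the likely direction. The basis was Tekt2, a tektin of the flagellum, and 3 other genes of a list of haploid spermatid genes, which were low on every array, whatever the channel order. The values of Tekt2 were -5.06, -3.71, -5.07 and -4.90 on replicates 1 to 4. Ccdc91 lay at -3.69, -3.72, -4.24 and -3.93, Ccdc136 between -4.52 and -2.60, and Capzb, a subunit of the actin capping protein, between -1.68 and -0.60. The other tested members did not point either way: Cstf2t, a polyadenylation factor, was at -0.00 ± 0.18 and Oaz3, the antizyme of spermatids, at 0.24 ± 0.28. Whether each listed member is specific to spermatids was not tested, and Capzb and Ccdc91 may not be. Only 6 of 87 genes listed as haploid had a probe, and protamines and transition proteins were not analysed here. These genes set the direction and are therefore no result, and with the opposite numerator all directions in the text would be exchanged.

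Of 16128 probes, 9953 had a value on at least 3 of the 4 arrays and were tested, and 1993 had none. The arrays differed in coverage, with 8692 and 8456 values on replicates 1 and 2 and 12870 and 13449 on replicates 3 and 4. All array pairs correlated positively over probes, most closely replicates 3 and 4 (r = 0.925) and least replicates 1 and 2 (r = 0.471, or 0.611 without log ratios beyond 10). Replicate 2 was compressed: against the mean of the other 3 arrays its slope was 0.643, while the slopes of replicates 1, 3 and 4 were 0.998, 1.08 and 1.05. No intensities were used here, so the signal behind a ratio is unknown and only the number of arrays limits the precision that can be stated.

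At 15 days, many genes of the flagellum and of late meiosis were lower than in the adult, and many of the matrix, contractile cells, spermatogonia and Sertoli cells were higher. In 1 limma model over all 21 arrays with a coefficient for each of the 5 comparisons, 2320 of 5513 genes passed an adjusted p under 0.05 (42.1%). Of these, 917 were higher at 15 days (16.6%) and 1403 were lower (25.4%). Among probes, with or without a gene name, 3864 passed (38.8%). The sign was the same on every array with a value for 2214 of the 2320 called genes, against 3745 of all 5513 tested genes. The calls rest on the same arrays, so the call itself favours such agreement. Differences towards the adult were larger. Beyond 2 on the log2 scale, which is 4-fold, lay 277 of the genes called lower and 11 of those called higher. Among the 11, Mybbp1a and Tmem164 owed this to 1 value of 16.64 on replicate 1, and were at 1.04 and 0.26 without it. Errors given as ± are standard errors of this model.

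**Figure D1:**
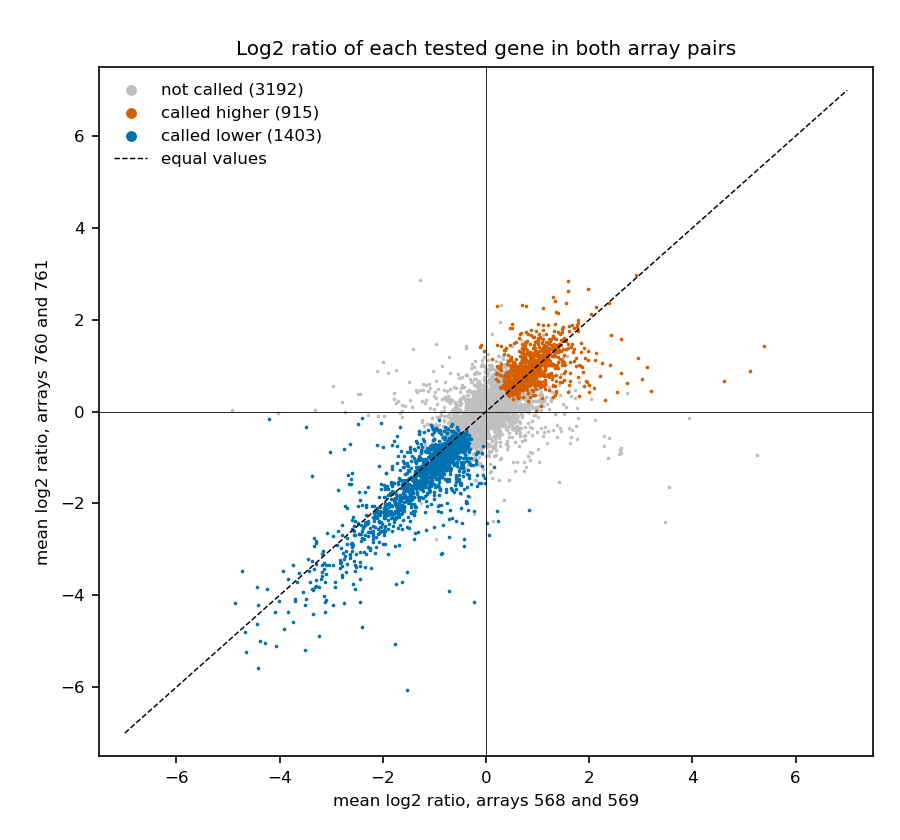
Mean log2 ratio of each tested gene on replicates 1 and 2 (arrays YA568 and YA569, horizontal axis) against replicates 3 and 4 (YA760 and YA761, vertical axis), coloured by the call of the model on all arrays; the dashed line marks equal values. Of the called genes, 2311 have the same sign on both axes, which the call favours because it used both pairs. Outside the axes are 3 genes with a value beyond 7.5, and the lower genes reach further from 0 than the higher ones.

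By their title numbers the arrays form a first pair, replicates 1 and 2, and a second pair, replicates 3 and 4, each with both channel orders. The difference between the pairs was called for 23 genes (0.417%), with 240 at an unadjusted p under 0.05. The difference between channel orders was called by limma for 0 genes (0%), with 111 at an unadjusted p under 0.05. Of the called genes, 2311 had the same sign in both pairs, which the call favours because it used both. Used alone, the first pair called 1118 genes and the second 1607, and 40 and 23 of the single results followed here kept their direction but no longer passed. If each pair is a dye swap of the same extracts, the 4 arrays hold 2 replicates. With the pairs as a block on the 4 arrays, 3101 genes were called, and with the 4 arrays alone 2957. With each pair averaged to 1 value, 1350 genes were called, 426 higher and 924 lower.

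The 15 lowest called genes with 4 values of 1 sign, none beyond 10 in size, lay between -5.01 and -3.91. Apart from Tekt2, they included Hk1, the first enzyme of glycolysis, which has a form of its own in sperm. Its values were -5.36, -3.97, -4.87 and -4.71, giving -4.73 ± 0.43 (26.5-fold, adjusted p = 5.81e-08). Qrich2, a gene of the sperm flagellum, was at -4.66 ± 0.36, and Rimbp3, a protein of the manchette that shapes the spermatid head, at -4.35 ± 0.40. Bag5, a partner of Hsp70 chaperones, was at -4.17 ± 0.31, Sqor, which oxidises sulfide in mitochondria, at -4.22 ± 0.36, and the lipid transfer gene Stard10 at -3.91 ± 0.23. Ppp1r32 was at -4.59 ± 0.36, Fam71e1 at -4.33 ± 0.53, Spata24 at -4.10 ± 0.39, Ccdc89 at -4.10 ± 0.37 and Fhad1 at -4.07 ± 0.31. The set was completed by 1700086L19Rik at -5.01 ± 0.73, 4930562C15Rik at -4.06 ± 0.53 and Lcn2, a secreted lipocalin, at -4.32 ± 0.32. Replicate 2 gave the value nearest 0 for 12 of these 15 genes.

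By the same rule, which leaves out Mybbp1a for a value beyond 10 on replicate 1, the 15 highest lay between 1.68 and 2.94. Col3a1, the collagen of reticular fibres, led them, with values of 3.13, 2.69, 3.14 and 2.81 and a mean of 2.94 ± 0.39 (7.67-fold, adjusted p = 4.78e-06). Several others encode proteins of the extracellular matrix. Col1a2 was at 2.08 ± 0.19, Col6a1 at 1.78 ± 0.24, Mgp, an inhibitor of calcification, at 1.77 ± 0.21 and the proteoglycan decorin, Dcn, at 1.76 ± 0.29. The prion protein gene Prnp was at 2.22 ± 0.41, the mitophagy receptor gene Fundc1 at 2.11 ± 0.21, the RNA-binding Tia1 at 1.96 ± 0.26 and Msln, a surface protein of mesothelium, at 1.90 ± 0.34. Wfdc1 was at 1.88 ± 0.28, Gprasp2 at 1.87 ± 0.35, the complement protease C1s1 at 1.80 ± 0.29, Nrep at 1.76 ± 0.23, the cyclin Ccnd1 at 1.73 ± 0.36 and Klhl23 at 1.68 ± 0.28. Replicate 1 was nearest 0 for 12 of these 15 genes, and for Prnp it gave 0.82 where the other arrays gave 2.37 to 2.89.

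**Figure D2:**
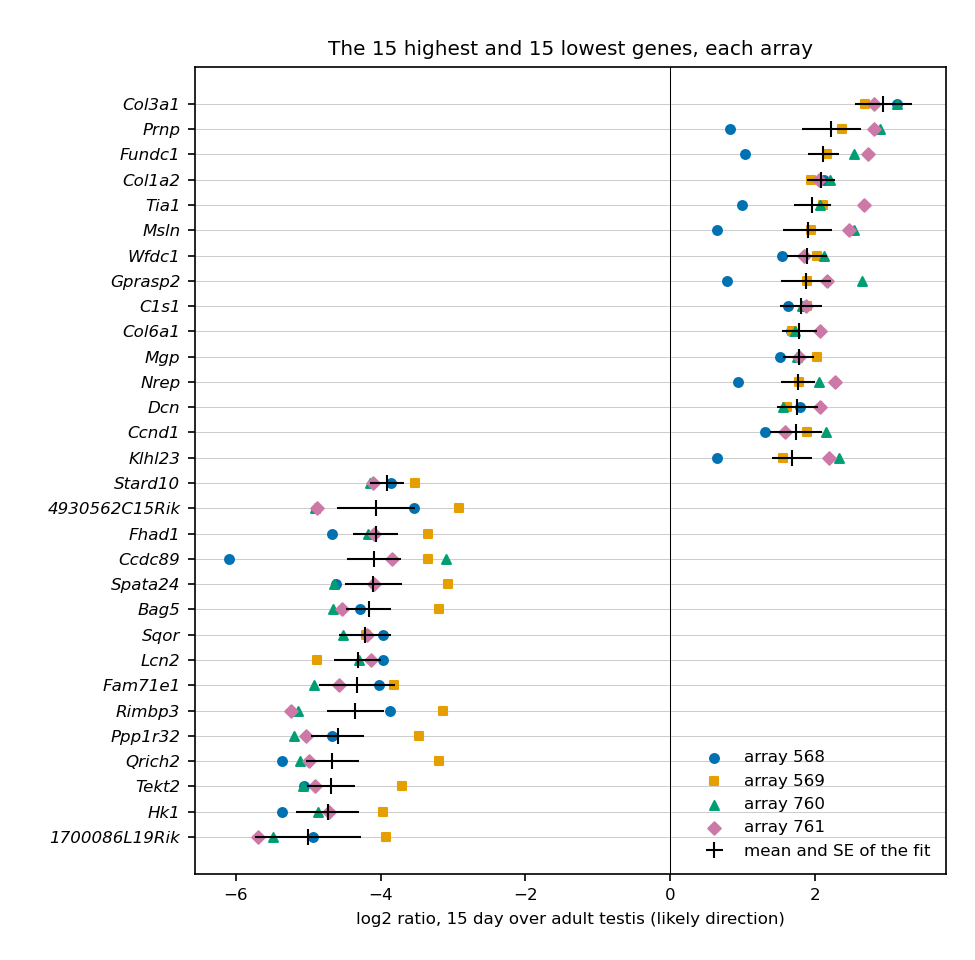
Log2 ratio (15 day over adult, likely direction) on each array for the 15 highest and 15 lowest called genes with 4 values; coloured symbols are arrays, and black marks with bars are the fitted mean and its standard error. Genes were chosen to have 1 sign on all arrays; replicate 2 (YA569) lies nearest 0 in most of the lower genes, and replicate 1 (YA568) lies nearest 0 in most of the higher ones.

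The flagellum is built on an axoneme of microtubule doublets with dynein arms, radial spokes and a nexin link, and its assembly uses intraflagellar transport. Of 34 tested genes of this list, 18 were lower at 15 days (52.9%) and 1 was higher (2.94%). Of all tested genes, 25.4% were lower and 16.6% higher. The list median was -0.83 against -0.04 for all tested genes. Tekt2, which helped to set the direction, is 1 of the 18. Drc1, part of the nexin link, gave -4.38, -2.33, -3.67 and -4.10, a mean of -3.62 ± 0.40 (adjusted p = 4.95e-07). Ak8, an adenylate kinase of cilia, was at -4.40 ± 0.53 and Cfap161 at -4.03 ± 0.62, each with 3 values. Lower genes named after their values were seen were Enkur, a microtubule inner protein of axonemes, at -3.56 ± 0.69, Cfap52 at -3.42 ± 0.53 and the radial spoke gene Rsph9 at -3.20 ± 0.46. The member that was higher, the dynein light chain Dynlrb1, was at 1.32 ± 0.18, and this light chain also serves cytoplasmic dynein. Of the untested members, Dnah9, a dynein heavy chain, had values only on replicates 3 and 4, and both of its probes were below 0 there (-2.18 and -1.02, -3.23 and -2.40).

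RFX factors bind the X-box, a promoter element of many ciliary genes, and GTTGCCAT is a form of 1 of its arms. These 8 letters, on either strand, were found in 1.18% of the 5777 promoters of tested genes (250 bases before to 50 after the start, RefSeq, build GRCm38.p6). Promoters were matched for 4499 of 5513 tested genes. The arm was in 0.622% of the promoters of genes higher at 15 days, in 0.886% of those not called, in 2.14% of those lower and in 3.04% of those lower by over 2. All promoters of the table gave 1.35%. These shares rest on 6, 29, 33 and 10 promoters, and a gene with several promoters counts once for each. The full cAMP response element TGACGTCA, bound by the spermatid regulator CREM among others, was in 3.12% of the promoters of lower genes, 3.04% of those lower by over 2, 2.38% of those higher, 3.30% of those not called and 3.10% of all tested. Of the other motifs searched on either strand, the core TGACG of the full element was in 35.3% of the promoters of lower genes, 30.2% of those higher and 32.9% of all tested. The same shares were 6.82%, 8.08% and 7.29% for the TATA box TATAAA, 38.2%, 39.7% and 38.5% for the CCAAT box CCAAT, and 62.6%, 68.7% and 64.4% for the GC box GGGCGG. A match describes letters in a window and is not a binding site.

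The X-box arm lay in 10 promoters of genes lower by over 2. Promoters of 1 chromosome were left out of the printing. Those printed belong to 8 genes, with 30 bases around the arm for each gene, to show which lower genes carried it. The arm, or its complement ATGGCAAC, is in capitals, and each run reads 5′ to 3′ on the strand of the gene.
Cfap161 (chr7:83794862-83794891, minus strand): gcctggtcgtcATGGCAACgaagcacgcta
Stard10 (chr7:101317077-101317106, plus strand): gggcacactgtGTTGCCATagacaacttct
Tlcd4 (chr3:121263321-121263350, minus strand): aaaaagcatcaGTTGCCATttcatctcctc
C330024D21Rik (chr5:67463901-67463930, plus strand): ttccttttccgGTTGCCATccttgccatcc
Kif9 (chr9:110476956-110476985, plus strand): gcaggcttcctGTTGCCATggcgactgtgt
Klf4 (chr4:55532608-55532637, minus strand): atttagctaccATGGCAACgcgcagtgggg
Hmox2 (chr16:4741490-4741519, plus strand): ctctcattgctATGGCAACtagtgctatag
Gde1 (chr7:118705839-118705868, minus strand): ggcctgctcctGTTGCCATgacagcggttc
Of these genes, Cfap161 encodes a protein of axonemal microtubules and Kif9 a kinesin of flagella. Kif9 was at -2.44 ± 0.28 with values of -2.70, -1.80, -2.58 and -2.67, but at -1.37 with 1 probe per gene. Tlcd4 was at -3.56 ± 0.46, C330024D21Rik at -2.86 ± 0.27, the zinc finger factor Klf4 at -2.42 ± 0.30, the haem oxygenase Hmox2 at -2.23 ± 0.35 (-1.11 with 1 probe per gene, so not lower by over 2) and the phosphodiesterase Gde1 at -2.14 ± 0.26 (3 values). The arm began 41 bases before the annotated start of Cfap161 and 172, 151, 112 and 119 bases before the printed starts of Tlcd4, Klf4, Hmox2 and Gde1.

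Late spermatocytes store the kinases and cyclins of the meiotic divisions. Of 26 tested genes of this list, 12 were lower at 15 days (46.2%, against 25.4% of all tested genes). Limma called 0 higher (against 16.6% of all, 0 also at an unadjusted p under 0.05), and the median was -0.86. Aurkc, an Aurora kinase used in meiosis, gave -2.75, -1.51, -2.46 and -3.01, a mean of -2.43 ± 0.30 (adjusted p = 2.15e-06). Every array was below 0, and replicate 2 was nearest to it. The microtubule-depolymerising kinesin Kif2c was at -2.74 ± 0.28, the kinase Plk1 at -2.37 ± 0.35 and Aurka, the Aurora kinase of the spindle poles, at -2.07 ± 0.22. Ccnb2, a B-type cyclin named after its value was seen, was at -1.81 ± 0.20. The count was 8 without replicate 3, and it was 5 on the first array pair alone and 13 on the second. Members with values on replicates 3 and 4 only were not tested. They were Mad2l1 at 0.36 and 1.30, Birc5 at -1.29 and -1.43 and Ube2c at -0.36 and -0.22.

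Early meiotic prophase genes divided by gene. Of 20 tested, 7 were lower (35%, against 25.4% of all tested genes) and 1 was higher (5%, against 16.6%), and the count of lower genes was 4 without replicate 4. The median was -0.29, but -0.19 without replicate 1 and -0.0037 over genes with 3 values in each of the 5 comparisons. Syce2, of the central element of the synaptonemal complex, was at -1.34 ± 0.21 with values of -1.58, -0.92, -1.50 and -1.35. Stag3, the meiotic cohesin, gave -1.31, -0.53, -1.24 and -1.36, a mean of -1.11 ± 0.24, and the cohesin Rec8 was at -0.56 ± 0.17 (-0.53 and not past the threshold without replicate 4). Sycp1, the transverse filament of the same complex, went the other way, with 1.11, 1.01, 1.02 and 1.26 and a mean of 1.10 ± 0.30 (adjusted p = 0.0063). Its call was lost with either array pair alone, at 1.06 and 1.14. Sycp3, of the lateral element, was at 0.61 ± 0.54 and did not pass, but passed with the array pairs as a block (limma, adjusted p = 0.014). Syce1 at -1.66 ± 0.57 and the recombinase partner Psmc3ip at -1.42 ± 0.46 passed, but neither call held without replicate 1, 3 or 4. Their values there ranged from -1.54 to -1.37 and from -1.41 to -1.25. On replicate 2 Syce1 was at 0.34, where the other arrays gave -2.51 to -2.01. Members with values on replicates 3 and 4 only were not tested and also divided. Mlh3 was at 1.89 and 1.57 there and Tex101 at 1.07 and 0.98. Topbp1 was at -1.91 and -1.13 and Meioc at -0.12 and 0.09.

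Spermatogonia are the dividing germ cells at the base of the tubule. Of 15 tested genes of their list, 6 were higher at 15 days (40%, against 16.6% of all tested genes). Only 1 was lower (6.67%, against 25.4%), and the median was 0.77. Besides Ccnd1, Sall4, a transcription factor of undifferentiated spermatogonia, was at 1.35 ± 0.23 (3 values), Foxo1 at 1.22 ± 0.24 and the tetraspanin gene Cd9 at 1.16 ± 0.28 (3 values). Foxo1 gave 1.28, 1.13, 1.30 and 1.17, all above 0 and close together. The member that was lower, Ddx4, is the RNA helicase of germ cells at many stages. It gave -1.04, -1.68, -1.15 and -1.07, a mean of -1.24 ± 0.32, and its call was lost on the second array pair alone (-1.11). Members with too few values to be tested went both ways. Dnmt3l was at -4.07 and Gfra1 at 0.61 on replicate 4 only, and Upp1 at 0.52 on replicate 3 only. Pou5f1 was at -0.62 and -0.93 on replicates 3 and 4. Dazl, a translational regulator of germ cells, was at 0.96 ± 0.49 and did not pass, but passed with the array pairs as a block and on the 4 arrays alone (limma, adjusted p = 0.0078 and 0.0037), where its spread is not pooled with the other comparisons.

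Sertoli cells nurse the germ cells and stop dividing before puberty. Of 20 tested Sertoli genes, 8 were higher at 15 days (40%, against 16.6% of all tested genes). Limma called 0 lower (against 25.4% of all, 0 also at an unadjusted p under 0.05), and the median was 0.55. Dhh, the hedgehog signal of Sertoli cells, gave 1.03, 1.23, 1.6 and 1.23, a mean of 1.27 ± 0.23 (adjusted p = 0.00016). Wnt4 was at 1.51 ± 0.37 with an uneven spread, from 0.30 on replicate 1 to 2.41 on replicate 4, and the protease inhibitor gene Serping1 at 1.46 ± 0.23. The inhibin subunit Inha was at 1.24 ± 0.25 and the transcription factor Wt1 at 0.85 ± 0.23, whereas Gata4 was at 0.38 ± 0.24 and did not pass, but passed with the array pairs as a block (limma, adjusted p = 0.028). Cst12 passed at 1.61 ± 0.57 on 3 arrays, and its call was lost without any 1 of them (1.52 to 1.73).

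Peritubular cells are contractile cells around the tubules. Of 11 tested smooth muscle genes, 5 were higher at 15 days (45.5%, against 16.6% of all tested genes). Limma called 0 lower (against 25.4% of all, 0 also at an unadjusted p under 0.05), and the median was 0.58. Tropomyosin Tpm1 was at 1.43 ± 0.17, myosin light chain kinase Mylk at 1.40 ± 0.17, myosin light chain Myl9 at 1.25 ± 0.20 and filamin Flna at 1.20 ± 0.16. Of 36 stroma and matrix genes, 16 were higher (44.4%, against 16.6%) and 3 lower (8.33%, against 25.4%), with a median of 0.56. The 16 were unchanged in number without any 1 replicate, and 11 and 15 were called on the array pairs alone. Col1a1 was at 2.37 ± 0.27 on 3 arrays, beside Col3a1, Col1a2 and Col6a1. Matrix genes were not uniformly higher. The proteoglycan gene Vcan gave -0.97, -1.42, -1.23 and -1.02, a mean of -1.16 ± 0.24, and the matrix protease Mmp2 was at -0.96 ± 0.25. Col12a1 was called at -0.70 ± 0.24, but its call was lost without replicate 1, 3 or 4 (-0.73 to -0.62).

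**Figure D3:**
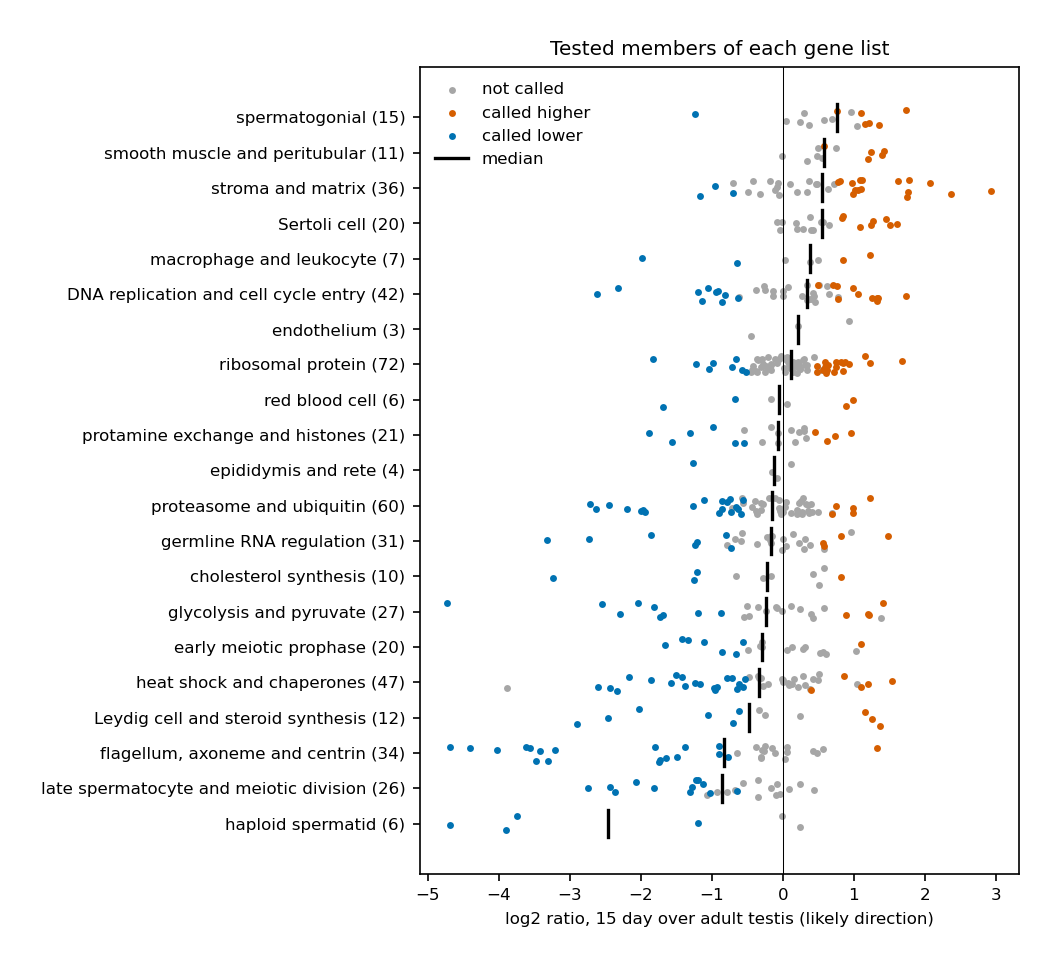
Log2 ratio (15 day over adult, likely direction) of every tested member of the 21 gene lists, with the number of tested members in parentheses; each point is a gene, orange is called higher, blue is called lower and grey is not called, and the black bar is the median. The haploid spermatid, late spermatocyte and flagellum lists have the lowest medians (-2.47, -0.86 and -0.83) and the spermatogonial list the highest (0.77). The haploid spermatid genes set the direction, so the sign of their median is no result.

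Leydig cells and the synthesis of steroid hormones went both ways. Of 12 tested genes, 6 were lower at 15 days (50%, against 25.4% of all tested genes). Another 3 were higher (25%, against 16.6%), and the median was -0.48. Cyp17a1, which turns progestins into androgen precursors, gave -2.48, -2.42, -2.77 and -3.95, a mean of -2.90 ± 0.35 (7.49-fold, adjusted p = 1.78e-06). Cyp11a1, the enzyme that shortens cholesterol to pregnenolone, gave -2.10, -1.68, -2.52 and -1.79, a mean of -2.02 ± 0.36. The epoxide hydrolase Ephx1 was at -2.46 ± 0.19. Both steroid enzymes were below 0 on every array and in both channel orders. Star, which brings cholesterol into mitochondria, had values only on replicates 3 and 4, at -1.67 and -1.69, and was not tested. Tspo, also untested, was at 0.58 and 0.79 on the same arrays. Hsd3b1, the next enzyme of the pathway, was at 0.24 ± 0.67 and its arrays lay on both sides of 0, and the lipoprotein receptor Scarb1 was at -0.34 ± 0.18. Pdgfra, which marks stem Leydig cells and other interstitial cells, was at -1.05 ± 0.32 and was lost on either array pair alone (-1.09 and -1.02). Of the 3 higher genes, the growth factor Igf1 was at 1.37 ± 0.20 on 3 arrays, while Cyb5a at 1.15 ± 0.36 and Hsd17b10 at 1.26 ± 0.42 were lost without replicate 1 or 4 (1.14 and 1.20 for Cyb5a, 1.09 and 1.24 for Hsd17b10), and Cyb5a also without replicate 3 (1.13).

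Cholesterol is the substrate of these enzymes. Of 10 tested genes of its synthesis, 3 were lower (30%) and 1 was higher (10%). For so few genes these shares are near the 25.4% and 16.6% of all tested genes. Squalene synthase, Fdft1, gave -3.14, -3.33 and -3.26 on replicates 1, 3 and 4, a mean of -3.24 ± 0.18 (9.47-fold), far below the others. Scap, a sterol sensor, was at -1.25 ± 0.21, squalene epoxidase, Sqle, at -1.21 ± 0.29 and the transcription factor gene Srebf1 at 0.81 ± 0.16. The median of the list was -0.22, and -0.14 without replicate 1, but 0.12 over the members with values on all 4 arrays.

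Glycolysis supplies ATP along the sperm tail, and several of its enzymes have forms specific to sperm. Of 27 tested genes of glycolysis and pyruvate use, 9 were lower at 15 days (33.3%, against 25.4% of all tested genes) and 4 higher (14.8%, against 16.6%). The median was -0.23, and -0.10 and -0.41 without replicates 1 and 2. After Hk1 came the glucose transporter Slc2a3 at -2.54 ± 0.34, with -3.71 on replicate 1 and -1.12 on replicate 2, then triose phosphate isomerase, Tpi1, at -2.30 ± 0.19 and phosphofructokinase Pfkm at -2.04 ± 0.44. Aldolase Aldoa was at -1.82 ± 0.22 and lactate dehydrogenase Ldha at -1.20 ± 0.36 (-1.08 and not past the threshold without replicate 3), both named after their values were seen. On the other side lay Ldhb, the other common lactate dehydrogenase subunit, at 1.22 ± 0.38 (1.15 and not past the threshold without replicate 3), the pentose phosphate enzyme Taldo1 at 1.42 ± 0.30 on 3 arrays, the kinase Pdk1, which restrains pyruvate dehydrogenase, at 1.20 ± 0.21 and the lactate and pyruvate transporter Slc16a1 at 0.89 ± 0.21 on 3 arrays.

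Chaperones fold new and damaged proteins. Of 47 tested, 20 were lower (42.6%, against 25.4% of all tested genes) and 5 higher (10.6%, against 16.6%), with a median of -0.33. Hspa4l, an Hsp110 relative abundant in testis, gave -2.92, -2.14, -2.67 and -2.70, a mean of -2.61 ± 0.21 (adjusted p = 1.4e-08). The Hsp70 partners Dnajb1 and Bag1 were at -2.44 ± 0.37 and -2.17 ± 0.29, and Dnajb4 at -2.34 ± 0.52 on 3 arrays. Among subunits of the chaperonin that folds tubulin and actin, Tcp1 was at -1.57 ± 0.20 and Cct7 at -1.42 ± 0.27, both named after their values were seen. The constitutive Hsp70 gene Hspa8 was higher, at 1.10 ± 0.18, as were the mitochondrial Hspe1 at 1.20 ± 0.27 and Pdia4, of the endoplasmic reticulum, at 1.54 ± 0.28 (3 arrays). The 5 higher calls were 3 without replicate 1, 3 or 4.

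Of 60 tested genes of the proteasome and ubiquitin pathway, 19 were lower (31.7%, against 25.4% of all tested genes) and 5 higher (8.33%, against 16.6%). The median was -0.14, and without replicate 3 it was -0.073 and the higher calls were 3. The ubiquitin ligase gene Rnf19a was at -2.72 ± 0.25, the deubiquitinase Usp1 at -2.62 ± 0.22 and the conjugating enzyme Ube2n at -2.19 ± 0.16. Subunits of the proteasome went both ways. The base ATPase Psmc3 was at -2.45 ± 0.31 on 3 arrays and, named after their values were seen, Psmc2, also a base ATPase, was at -2.0 ± 0.19, Psmd8, of the lid, at -1.97 ± 0.20 and Psma6, of the outer ring of the core, at -1.94 ± 0.36. Psma7, of the same ring, gave 0.94, 1.35, 1.29 and 1.33, a mean of 1.23 ± 0.16, and the activator subunit Psme1 was at 0.98 ± 0.19 (0.78 and not past the threshold with 1 probe per gene).

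Germ cells store and silence RNA with proteins of their own. Of 31 tested genes of this list, 7 were lower (22.6%) and 4 higher (12.9%), shares near the 25.4% and 16.6% of all tested genes. The median was -0.16, and -0.10, -0.04 and -0.083 without replicates 1, 3 and 4. The higher calls were 2 without replicate 3 or 4. Ybx3, a Y-box protein that represses stored mRNA in spermatids, gave -4.07, -2.13, -3.54 and -3.54, a mean of -3.32 ± 0.32 (adjusted p = 7.3e-08). Gtsf1, of the piRNA pathway, was at -2.73 ± 0.35 and Tarbp2, an RNA-binding protein needed for spermiogenesis, at -1.85 ± 0.22. Elavl2 was higher, at 1.48 ± 0.33 on 3 arrays. The other higher members were the RNA-binding Prkra at 0.57 ± 0.17, lost on either array pair alone (0.63 and 0.52), Mov10l1, a helicase of the piRNA pathway, at 0.82 ± 0.27, lost without replicate 1, 3 or 4 (0.75 to 0.82), and Khdrbs1 at 0.56 ± 0.17, lost without replicate 3 or 4 (0.53 and 0.52).

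Of 21 tested genes of histones and their exchange, 6 were lower (28.6%) and 4 higher (19%), shares near the 25.4% and 16.6% of all tested genes. The median was -0.06, and between -0.06 and -0.0017 with 1 replicate left out, nearest 0 without replicate 3. The histone chaperone Nasp was at -1.88 ± 0.27, Brdt, the bromodomain protein of spermatids, at -1.56 ± 0.30 and the methyltransferase Ehmt2 at -1.30 ± 0.26. For Brdt, the value was -0.30 and did not pass when only probes with 3 values in each of the 5 comparisons were averaged. Cbx5, a heterochromatin protein, was at 0.96 ± 0.17 (0.75 and not past the threshold with 1 probe per gene). The other 3 higher members, Hmgb1, Hmgb3 and Cbx1, were each lost without at least 2 of the replicates, Hmgb1 without replicate 1, 2 or 3 (0.52, 0.38 and 0.39), Hmgb3 without 3 or 4 (0.43 and 0.50) and Cbx1 without 2, 3 or 4 (0.60, 0.81 and 0.81).

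Of 42 tested genes of DNA replication and of the start of the cell cycle, 11 were higher (26.2%, against 16.6% of all tested genes). Another 10 were lower (23.8%, against 25.4%), and 6 were lower without replicate 3. The median of the fitted values was 0.35, but each array alone gave less, at 0.22, 0.02, 0.245 and 0.20 on replicates 1 to 4. The D cyclins, which drive the start of the cycle, parted: Ccnd1 was at 1.73 and Ccnd3 at -2.32 ± 0.19, with values of -2.11, -1.97, -2.58 and -2.62. The licensing factors Cdt1 and Orc6 were at 1.33 ± 0.23 and 1.33 ± 0.21 on 3 arrays each, and the inhibitor Cdkn2c at 1.34 ± 0.24. The chromatin assembly subunit Chaf1a gave -2.30, -2.0, -3.08 and -3.07, a mean of -2.61 ± 0.44, and the clamp loader subunit Rfc2 was at -1.20 ± 0.19.

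Of 72 tested ribosomal protein genes, 19 were higher (26.4%, against 16.6% of all tested genes) and 8 lower (11.1%, against 25.4%). The median was 0.12, and 0.22, 0.058 and 0.058 without replicates 1, 2 and 3. Array by array it was uneven, at -0.13, 0.35, 0.24 and 0.0096 on replicates 1 to 4. Replicates 1 and 4, with the lower medians, shared a channel order, and replicates 2 and 3 had the opposite order. Whether channel order moved the median of this list was not tested. The highest was the X-linked Rps4x, with 1.59, 1.62, 1.68 and 1.84 and a mean of 1.68 ± 0.16 (adjusted p = 5.14e-08), followed by the X-linked Rpl10 at 1.23 ± 0.23 (1.11 and not past the threshold with 1 probe per gene). Rpl10a was at 1.16 ± 0.20 and Rps19 at 0.93 ± 0.19. The lowest was Rpl39l, a copy of Rpl39 used in male germ cells, at -1.82 ± 0.31. Rps13 was at -1.22 ± 0.30, but this rested on -2.94 on replicate 2 against -0.80 to -0.49 elsewhere, and it was -0.64 without that array. Rpl22l1, at -0.99 ± 0.27, was lost without replicate 2 (-0.72). The higher calls were 12 without replicate 2 and 10 without replicate 3, and the lower calls were 5, 5 and 4 without replicates 1, 3 and 4. Transcripts of ribosomal proteins have many processed copies in the genome, and which of them a probe detects is not given.

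Several widely used genes have a relative that takes their place in male germ cells, often an autosomal copy of an X-linked parent. Of 50 pairs listed as a widely used gene and a germ line relative, 11 had both members tested. The pairs were chosen with earlier results of these data known, so their tests are no independent support. Which member is the germ line form was set by the list and may not hold for every pair. The difference between the members on each array was tested with limma. In 7 of the 11 pairs the member listed as widely used lay above its relative at 15 days against adult, and in 2 it lay below (adjusted over the 11 pairs). Rpl39 exceeded Rpl39l by 3.05, 2.80 and 3.02 on replicates 1, 3 and 4, a mean of 2.96 ± 0.53 (adjusted p = 2.32e-05). Between the centrins, which organise centrioles, Cetn2 exceeded Cetn4 by 3.54 ± 0.34, with Cetn2 itself at 0.07 and Cetn4 at -3.48 ± 0.25. The Aurora kinase Aurkb exceeded Aurkc by 2.88 ± 0.47, and replicate 1, at 4.98, stood above the 1.87 to 2.46 of the others. The cytochrome oxidase subunit Cox6b1 exceeded its testis form Cox6b2 by 2.65 ± 0.33, and Hspa4 exceeded Hspa4l by 1.68 ± 0.29, though both of these were lower at 15 days (-0.93 and -2.61). Dynlrb1 exceeded Dynlrb2 by 1.30 ± 0.31. The glycosyltransferase Galnt1 exceeded Galnt3 by 6.0 and 5.65 on the 2 arrays with both, a mean of 5.83 ± 0.40.

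In the pairs that went the other way, Rps27 lay 1.08 ± 0.24 below Rps27l and Dynlt1b, a dynein light chain, 1.51 ± 0.29 below Dynlt3. Neither member listed as germ line was called lower there, with Rps27l at 0.64 and Dynlt3 at -0.29, whereas Dynlt1b was called at -1.80. Dynlt3 averaged 2 probes of opposite sign (-1.185 and 0.60). The antizymes Oaz1 and Oaz3 differed by 0.27 ± 0.26 and the transcription factor subunits Taf7 and Taf7l by -0.33 ± 0.31, neither past the threshold. Taf7l, the X-linked germ cell form, was itself at 1.10 ± 0.18 and Taf7 at 0.74 ± 0.20.

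**Figure D4:**
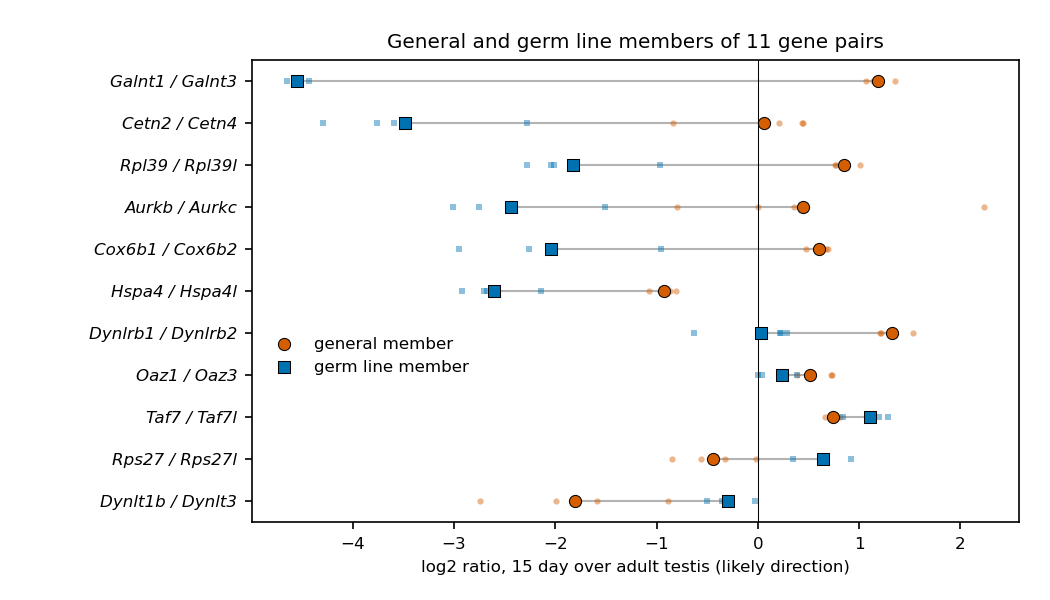
Log2 ratio (15 day over adult, likely direction) of the member listed as widely used (orange circles) and of the member listed as its germ line relative (blue squares) in 11 pairs. Large symbols are fitted means, small ones are arrays, and grey lines join the members. The blue square lies left of the orange circle in 8 pairs, 7 of them past the threshold, and right of it in 3, of which Rps27 with Rps27l and Dynlt1b with Dynlt3 passed.

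The X chromosome is silenced in spermatocytes from pachytene on and stays largely silent in spermatids. Of 158 tested X-linked genes, 64 were higher at 15 days (40.5%) and 15 lower (9.49%), with a median of 0.47. Of 5295 autosomal genes, 839 were higher (15.8%) and 1380 lower (26.1%), with a median of -0.05. The X median was above 0 on every array, at 0.43, 0.28, 0.50 and 0.63, and the autosomes ranged from -0.20 (chromosome 19) to 0.06 (chromosome 6). The 64 were 41 without replicate 4, and 21 and 47 on the array pairs alone, where the X medians were 0.37 and 0.59. They include Tmem164, whose mean rests on replicate 1, and were 63 without log ratios beyond 10. Of the 140 X-linked genes on none of the lists, 55 were higher and 14 lower, with a median of 0.45.

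After Fundc1, Gprasp2 and Rps4x, X-linked genes that were higher included, named after their values were seen, Maged1 at 1.57 ± 0.21 on 3 arrays and the actin-binding thymosin Tmsb4x at 1.47 ± 0.16, with 1.17, 1.54, 1.62 and 1.54. The lowest X-linked genes were Tspan6, a tetraspanin, with -3.44, -3.12 and -3.28 on replicates 2, 3 and 4 and a mean of -3.28 ± 0.30, Gm9 at -2.15 ± 0.35, the creatine transporter Slc6a8 at -1.86 ± 0.15 and Plac1 at -1.77 ± 0.21. Slc6a8 was at -1.04 and not past the threshold when probes with 2 values were averaged in. The tested Y-linked gene, 1 in all, did not pass.

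**Figure D5:**
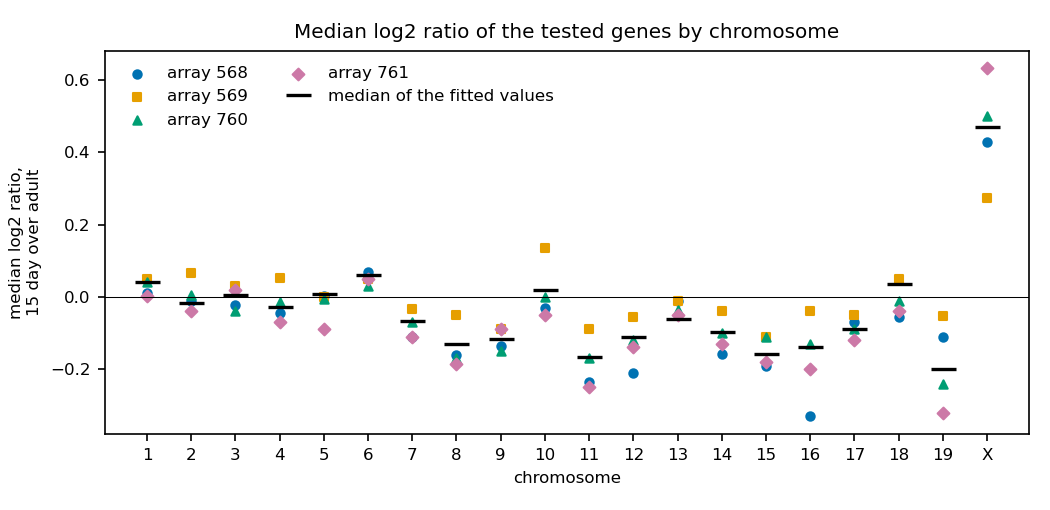
Median log2 ratio of the tested genes of each chromosome (15 day over adult, likely direction) on each array (coloured symbols) and over the fitted values (black bars). The X chromosome stands above every autosome, at 0.43, 0.28, 0.50 and 0.63 on replicates 1 to 4.

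Other cell types of the testis and its surroundings were covered by few probes. Of 7 tested macrophage and leukocyte genes, 2 were higher and 2 lower (28.6% each, against 16.6% and 25.4% of all tested genes). The Fc receptor gene Fcgr3 was at -1.98 ± 0.29 and the complement gene C1qc at 1.24 ± 0.35. Lyz2 at 0.85 ± 0.27 was lost without replicate 2 or 4 (0.72 and 0.78). Laptm5 at -0.64 ± 0.22 was lost without 2, 3 or 4 (-0.68 to -0.57). C1qc was lost on either array pair alone (1.12 and 1.34). Of 6 red blood cell genes, 2 were higher and 2 lower (33.3% each, against the same 16.6% and 25.4%). Among them the anion exchanger Slc4a1 was at -0.68 ± 0.19, lost on either array pair alone (-0.62 and -0.72), the transferrin receptor Tfrc at 0.99 ± 0.24 and Bpgm, which makes the ligand that loosens oxygen from haemoglobin, at -1.69 ± 0.23. Car1, at 0.90 ± 0.27, had values of -0.12, 1.41 and 1.40 and was lost without replicate 3 or 4 (0.64 and 0.65). Limma called 0 of 3 endothelial genes in either direction (0 also at an unadjusted p under 0.05), with Emcn at 0.94 ± 0.45, which passed with the array pairs as a block (limma, adjusted p = 0.016). Of 4 genes of epididymis and rete epithelium, 1 was lower (25%, against 25.4%), the keratin gene Krt8 at -1.26 ± 0.22 on 3 arrays. Limma called 0 of them higher (0 also at an unadjusted p under 0.05). These lists did not move one way with the comparison, and their part in the other results was not tested. A ratio gives no level, so whether these markers were near background is not known.

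Spo11 makes the DNA breaks of meiotic recombination, and spermatocytes without it die in prophase. The labels gave no age for the Spo11 knockout and its wild type, and did not say whether their wild type RNA was also used as the adult RNA here, so the 2 comparisons may share it. In the same model, 15 day minus knockout effects differed for 18 of 4666 genes in the direction higher at 15 days (0.386%) and for 96 in the direction lower (2.06%), and the total of 114 was 69, 62 and 67 without replicates 1, 3 and 4. Leydig genes were among the latter: 5 of 11 differed, with medians of -0.61 at 15 days and 1.20 in the knockout. Other lists also held genes that differed in this direction. Among them were cholesterol synthesis (2 of 9), Sertoli cell (2 of 19), macrophage and leukocyte (1 of 7) and proteasome and ubiquitin (3 of 58). Cyp17a1 was at -2.90 at 15 days and 1.93 in the knockout, a difference of -4.83 ± 0.53. Lcn2 was at -3.96, -4.88, -4.30 and -4.13 at 15 days and between 3.13 and 3.4 on the knockout arrays, a difference of -7.55 ± 0.45.

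Some genes had a value that 1 array set. Mybbp1a was at 16.6 on replicate 1 and between 0.97 and 1.17 on the others, which gave 4.94 ± 1.53, and 1.04 ± 0.25 (adjusted p = 0.0028) once the extreme value was left out. Tmem164 was at 16.6 on replicate 1 and at 0.36 and 0.16 on replicates 3 and 4, and without replicate 1 it was at 0.26 and did not pass. Cct8, a chaperonin subunit, was at -16.7 on replicate 2 and between -0.29 and 1.44 elsewhere, and it did not pass with that value or without it.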

How the data were processed

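The authors deposited 1 value per probe and array, read here as log2 ratios: the unit is not stated by the labels, and the reading rests on values of both signs centred near 0. How the scans were made, background-corrected and normalized is not given in the sources used here. Arrays of opposite channel order correlated positively, so none was turned. Gene symbols came from the platform annotation and were updated through gene identifiers to RefSeq (GRCm38.p6). Of 9817 annotated probes, 9604 had 1 symbol, 213 several, and 9496 matched RefSeq; 6311 were not listed. Probes without 1 symbol entered probe counts only.

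Each array was centred on its median. Probes with values on 3 or more of the 4 arrays were tested, and missing values were not imputed. A gene's value was the mean over its tested probes (1167 of 5513 genes had several; in 54 of 513 such called genes the probes differed in sign). Limma 3.58.1 in R 4.3.3 fitted 5 group coefficients to 21 arrays, with default eBayes and Benjamini-Hochberg adjustment over all tested probes or genes, at 0.05; the other groups share the estimate of spread. The code was tested on simulated data. A sign permutation over 4 arrays cannot go below an exact two-sided p of 0.125. Lists are described by counts and medians, without a test. Members, lists and pairs were chosen with earlier results of these data known. Named genes were the 15 highest and lowest called genes with 4 values of 1 sign and none beyond 10 in size, up to 4 per list and direction and 4 per direction on the X, all tested pairs, the 8 largest knockout differences per direction, genes set by 1 array and defining markers; others are said to be named after their values were seen. Alternatives changed the arrays fitted, the channel and array-number terms, centring, scaling, filters, extreme values, eBayes, the threshold, probes per gene and the replicates left out.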

Additional observations from a re-analysis of the deposited data

Results flagged for a closer look

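Of 140 named genes with 4 values, 16 had 1 array far from the other 3, and chance gives about 1 in 20 such groups. Replicate 2 was the array apart, and nearest 0, for Tekt2 (-3.71), Tpi1 (-1.57), Stag3 (-0.53), Scap (-0.69), Tarbp2 (-1.09), Plac1 (-1.25), Kif9 (-1.80), Klf4 (-1.26) and Psma6 (-1.70). For Rps13 it was furthest from 0 (-2.94). Replicate 1 stood apart, nearest 0, for Myl9 (0.89), C1qc (0.83), Psma7 (0.94) and Khdrbs1 (0.24). Replicate 4 stood apart for Col6a1, furthest from 0 (2.06), and for Prkra, nearest 0 (0.40). Of 21 list medians, 4 had replicate 2 apart: haploid spermatid (-1.60), late spermatocyte (-0.46), early meiotic prophase (-0.04) and endothelium (-0.08).

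The 15 day and Spo11 knockout effects differed for 114 genes in the interaction contrast of limma. The largest differences, 15 day minus knockout, were -7.55 for Lcn2, -5.27 for the carboxylesterase Ces1d, -4.83 for Cyp17a1, -4.60 for Ephx1, -4.22 for Cyp11a1, -3.61 for Bhmt, -3.07 for Prnd and -3.0 for Ube2e3. The steroid enzymes Cyp17a1 and Cyp11a1 were below 0 at 15 days (-2.90 and -2.02) and above it in the knockout (1.93 and 2.19). In the other direction the differences were 3.13 for Adprhl2, 2.39 for Alg10b, 2.19 for B9d1, 2.03 for Cyp2s1, 1.75 for Parn, 1.65 for Luc7l2, 1.56 for Chtop and 1.52 for Cetn4. Cetn4 was low in both comparisons, at -3.48 at 15 days and -5.00 in the knockout.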

How the results depend on the processing

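Of 171 named genes, 114 were called in the same direction under every alternative that gave a value and 21 changed their call when 1 replicate was left out. With the first array pair alone (replicates 1 and 2), 1740 probes and 1118 genes were called, 357 of the genes higher and the rest lower, with 21 X-linked genes higher and 9 lower. With the second pair alone (replicates 3 and 4), 2544 probes were called and 503 genes were higher. With each pair averaged, an alternative chosen after seeing the data, 2088 probes and 1350 genes were called, 426 higher and 924 lower, with 33 X-linked genes higher. These 3 alternatives use fewer values per gene. With the pairs as a block on the 4 arrays, 3101 genes were called, 1372 of them higher, with 82 X-linked genes higher and 26 lower, and 2579 probes were higher; the 4 arrays alone called 2957 genes. Dazl, Sycp3, Gata4 and Emcn passed under the block and not in the model of 21 arrays, and Dazl, Sycp3, Emcn and Scarb1 passed on the 4 arrays alone. At an adjusted p under 0.01, 2533 probes and 1606 genes were called, 1063 of the genes lower and the rest higher, 41 X-linked genes were higher and 45 genes differed from the knockout. Scaled to 1 spread, 58 genes differed from the knockout; the cause was not tested. Leaving out 1 replicate gave 62 to 78 genes there and 41 to 61 X-linked genes higher. Signs turned for Car1 (-0.12), Hsd3b1 (-0.12) and Cstf2t (0.14) on the first pair alone. Cstf2t was also at 0.041 without centring and between -0.055 and 0.083 with 1 replicate left out (0.0017 without replicate 3). The median of all genes was 0.0075 without centring and 0 with values on 2 or more arrays. The endothelial median was -0.12 over genes on all 4 arrays and -0.45 with 3 values in each of 5 groups, and the cholesterol median was 0.12 over genes on all 4 arrays. The labels hold no replicate numbers, so the block rests on the title numbers. Signal over background is unknown, no level can be set against another, and the number of independent animals is not given.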
